A study of Mus musculus with 16 samples.

Results

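Homeostatic microglia markers are the genes by which resting brain microglia are recognised. Here they are P2ry12, P2ry13, Tmem119, Cx3cr1, Sall1, Siglech, Gpr34, Olfml3, Fcrls and Selplg, 10 of the 53801 genes of the series, taken by their symbols. They were chosen with earlier results of these data known. Each symbol matched 1 gene ID, and all 10 passed the filter on low counts, with every marker well above the filter in every group. The libraries hold messenger RNA of cells that were sorted magnetically from whole brain as oligodendrocytes, the myelin-forming glia. There were 16 libraries, from male mice of 8 months, in 4 groups of 4. The groups WT_NCD and WT_HFD are wild-type C57BL/6J Jcl mice, bought from a supplier, on a normal control diet (12.5% of energy as fat) or a high-fat diet (60.0%). The mice of App_NCD and App_HFD are homozygous for the App NL-G-F allele (App NL-G-F/NL-G-F), on the same diets, bred as a line of their own. The diets ran for 6 months from an age of 2 months. The App NL-G-F allele is a knock-in at the mouse App gene that humanises the amyloid-β sequence and adds the Swedish, Beyreuther/Iberian and Arctic mutations. It acts in every cell that expresses App, and the wild-type mice were not littermates by the labels, so genotype and colony cannot be told apart. Libraries are called by group and by the labels' own replicate number, and n counts libraries. Whether each is 1 mouse is not stated, so p-values measure the spread between libraries.

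Microglia are the resident macrophages of the brain. In the healthy brain they carry surface receptors that sense nucleotides and chemokines from neighbouring cells, and a program held by the transcription factor Sall1 and by transforming growth factor β. Around amyloid plaques, microglia are known to change to a phagocytic state in which receptors such as P2ry12, Cx3cr1 and Tmem119 are turned down per cell while genes such as Cst7, Itgax and Clec7a are turned on. Plaques also draw more microglia to them. In RNA of a bulk sample, fewer cells of a type and less RNA per cell cannot be told apart.

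P2ry12 and P2ry13 are neighbours on the minus strand of chromosome 3, both inside Med12l, which runs on the other strand; Fcrls, also on the minus strand of chromosome 3, had the largest genotype difference in CPM of the 10 on both diets when the library App_NCD 553 was left out. The 250 bases before the RefSeq start of each (GRCm38.p6, minus strand, chr3:59262986-59263235 for P2ry12, chr3:59210883-59211132 for P2ry13 and chr3:87263525-87263774 for Fcrls) are shown 5′ to 3′, because these are 3 markers that parted in the results. Capitals mark GAGGAA, letters found in many binding sites of the myeloid factor PU.1, searched on both strands.
P2ry12: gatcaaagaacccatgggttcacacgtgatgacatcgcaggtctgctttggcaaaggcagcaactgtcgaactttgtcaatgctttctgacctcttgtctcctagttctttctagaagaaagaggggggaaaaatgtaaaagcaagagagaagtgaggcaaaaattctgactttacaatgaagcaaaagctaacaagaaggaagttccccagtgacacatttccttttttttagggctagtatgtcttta
P2ry13: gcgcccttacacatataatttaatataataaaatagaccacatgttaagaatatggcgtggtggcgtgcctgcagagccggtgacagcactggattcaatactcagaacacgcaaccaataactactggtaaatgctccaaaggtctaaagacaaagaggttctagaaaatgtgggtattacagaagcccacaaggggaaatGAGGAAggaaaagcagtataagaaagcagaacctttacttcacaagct
Fcrls: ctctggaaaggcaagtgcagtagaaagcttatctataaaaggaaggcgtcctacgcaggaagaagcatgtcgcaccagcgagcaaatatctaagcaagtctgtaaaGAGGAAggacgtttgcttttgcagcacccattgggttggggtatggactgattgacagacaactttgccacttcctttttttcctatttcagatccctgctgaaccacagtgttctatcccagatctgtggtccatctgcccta
The letters occurred once each before P2ry13 and Fcrls and not before P2ry12. Of the 7 markers with an entry in the RefSeq table only these 2 held them, and 23.3% of all 32817 windows of this length did, so the match does not set these markers apart. Tmem119, Gpr34 and Selplg had no entry. In GENCODE vM21 (GRCm38), Tmem119 and Selplg are close to each other on the minus strand of chromosome 5, at 113793729 to 113800516 and 113818536 to 113832644; Cx3cr1 is on chromosome 9, Sall1 on 8, Siglech on 7, Olfml3 on 3 and Gpr34 on X.

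Totals ran from 64538297 to 217925484 counts per library. The library App_NCD 553 stood apart: 39.4% of its counts were mitochondrial, against 1.22% to 4.62% in the other 15, and 18928 genes had a count, against at least 27151. It also had the extreme value of several markers, so each result is given with all 16 libraries and without it. Oligodendrocyte genes were high in all libraries: 15 myelin and mature oligodendrocyte genes, Mbp and Mog among them, summed to 36567 to 48696 CPM (counts relative to the library total, scaled by TMM) in WT_NCD, 43303 to 51041 in WT_HFD, 31495 to 42135 in App_NCD without 553 and 36976 to 50189 in App_HFD. A list of 24 genes of the plaque-associated microglial state summed to 7095 to 9100, 6176 to 7420, 34289 to 35885 and 23537 to 38204 CPM in the same order. It was above the myelin list in App_NCD 537 (34289 against 31495 CPM) and App_HFD 559 (38204 against 36976 CPM). Which cells this sum came from was not tested. Microglial RNA was present in every library. The 10 markers together summed to 1450.3 to 2539.6 CPM in WT_NCD, 1200.1 to 2273 in WT_HFD, 3920.0 to 4096 in App_NCD without 553 and 2683 to 4489.6 in App_HFD. A list of 16 other genes that all microglia and macrophages express, such as Aif1, C1qa and Itgam, summed to 1813 to 3247, 1408 to 2625, 7112 to 8042 and 5079.8 to 8531 CPM in the same order.

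On the control diet most markers were higher in App than in wild-type libraries, and Tmem119 was not. With all 16 libraries 7 of the 10 rose in edgeR's quasi-likelihood test (adjusted p under 0.05 over all genes): Olfml3, Sall1, Gpr34, Cx3cr1, Fcrls, Selplg and P2ry12. Without App_NCD 553, 8 rose: P2ry13 and Siglech joined and P2ry12 left. The share of all genes called higher was 6.5% with 16 libraries and 10.2% without App_NCD 553, and 1.88% and 7.22% were called lower. The median log2 fold change of the 10 was 1.02 and 1.08, against -0.016 and -0.051 for all genes tested. The count with App_NCD 553 included was fragile: it went from 7 to 3 without WT_NCD 5, without WT_NCD 11 or without WT_NCD 12. Calls over all genes also fell in these fits, from 1826 to 969, 945 and 939, so the loss was not particular to the markers. Without App_NCD 553 and WT_NCD 11 it was 7, where 2229 of all 22137 genes tested were called higher and 862 lower.

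On the high-fat diet 8 of the 10 rose, the same 8 with all 16 libraries and without App_NCD 553. They were P2ry13, Cx3cr1, Sall1, Siglech, Gpr34, Olfml3, Fcrls and Selplg, and P2ry12 and Tmem119 did not pass. Of all genes, 5.09% were called higher with 16 libraries and 10.8% without App_NCD 553, and 2.05% and 8.54% lower. The median log2 fold change of the 10 was 1.14 and 1.12, against 0.0054 and -0.016 for all genes. With 16 libraries the count was 5 when WT_NCD 12, WT_HFD 2, WT_HFD 3, WT_HFD 15, App_HFD 547, App_HFD 559 or App_HFD 560 was left out. Calls over all genes fell there too, from 1554 to between 869 (without WT_HFD 2) and 1287 (without WT_NCD 12). The genotype contrasts on both diets share no library but were fitted with 1 estimate of the spread.

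Every App library was above every wild-type library of its diet for most markers. With App_NCD 553 left out, the groups did not overlap on the control diet for 9 of the 10, Tmem119 being the exception, where 13.3% of all genes had App_NCD wholly above WT_NCD. With it they did not overlap for 7, against 7.66% of all genes, since Siglech and Fcrls were low in that library. These ranges are on the TMM scale, which raised the CPM of App_NCD 553 relative to its library total. Cx3cr1 had 22884 of 71444546 counts there (649.8 CPM) and 46144 of 132551107 in WT_NCD 11 (325 CPM). On the high-fat diet 7 of the 10 did not overlap, against 15% of all genes (13.7% with the scaling of the 15 libraries); Tmem119, P2ry12 and Selplg overlapped.

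**Figure D1:**
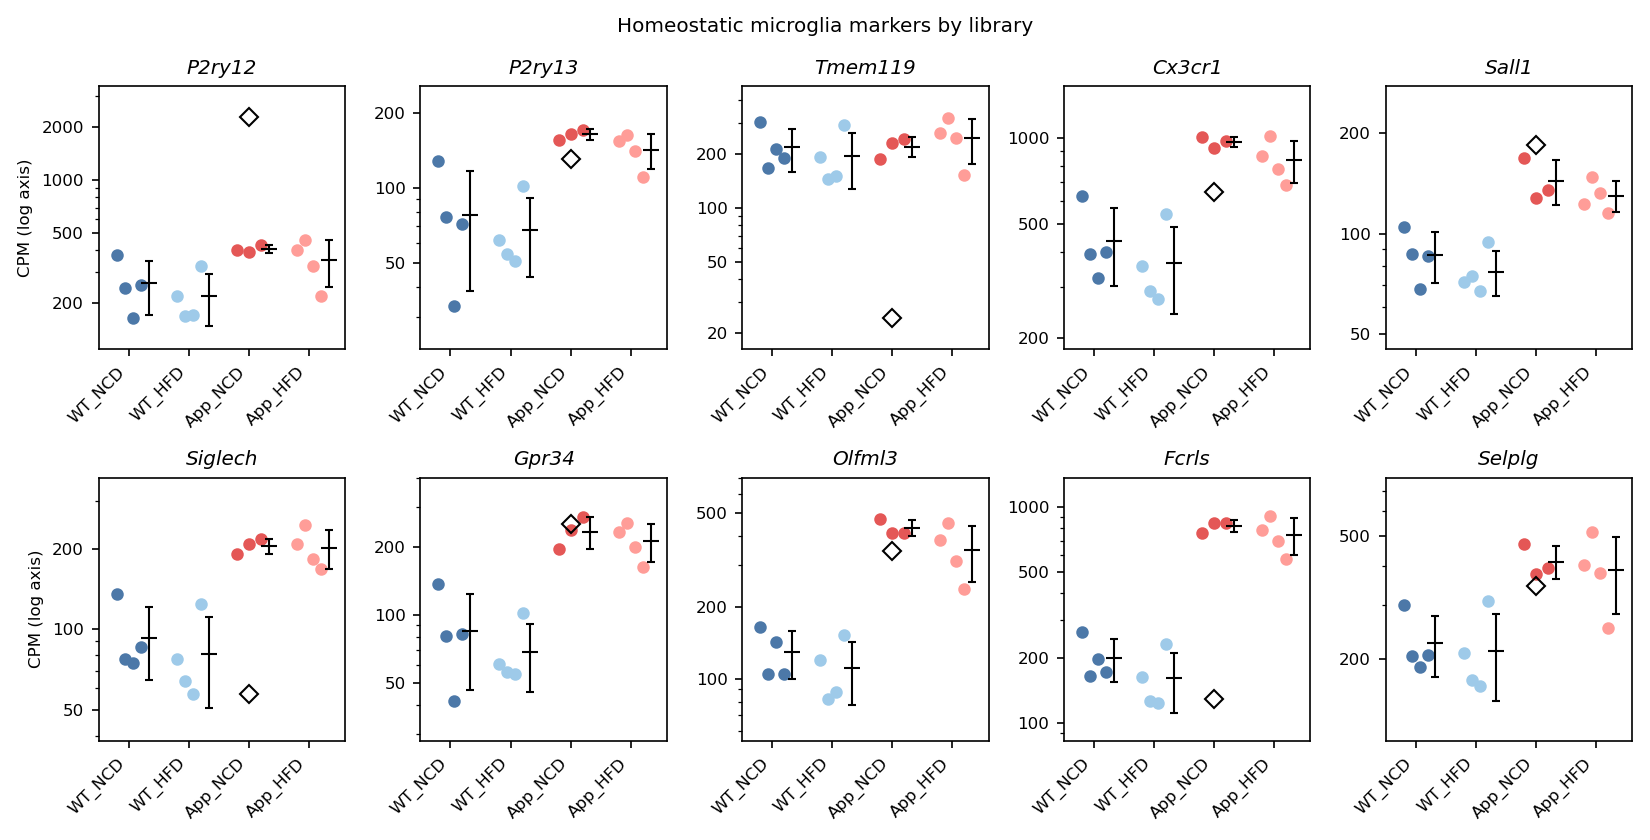
CPM of each of the 10 markers (log axis) in every library of the 4 groups; points are libraries, the open diamond is App_NCD 553, and the bar beside each group is the mean ± SD without it. Tmem119 is at 167 to 303 CPM in WT_NCD and 188 to 243 in the other 3 App_NCD libraries, while Fcrls goes from 166 to 265 to 757 to 849 CPM.

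Tmem119 encodes a membrane protein used as a microglia-specific marker, whose function is not settled. Its level was 303, 167, 214 and 191 CPM in WT_NCD 4, 5, 11 and 12. In WT_HFD 2, 3, 15 and 16 it was 192, 145, 151 and 290.0 CPM, and in App_NCD 537, 538, 545 and 553 it was 188, 231, 243 and 24.3. It was 263, 321, 246 and 153 CPM in App_HFD 547, 559, 560 and 561. Apart from App_NCD 553, far below all others, the 4 groups overlapped. The log2 fold change App over wild type on the control diet was -0.016 ± 0.265 without App_NCD 553 (SE, edgeR adjusted p = 0.978) and -0.35 ± 0.476 with it (adjusted p = 0.662). On the high-fat diet it was 0.31 ± 0.246 (adjusted p = 0.429) and 0.34 ± 0.476 (0.856). These values do not show equal levels: without App_NCD 553, WT_NCD 4 and WT_HFD 16, the highest library of each wild-type group in all 10 markers, Tmem119 had 0.59 on the high-fat diet (edgeR adjusted p = 0.049) and all 10 markers were called there, a choice that by construction raises the difference. Of all 21998 genes tested in that fit, 2789 were called higher and 1980 lower.

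Of the nucleotide receptors, P2ry12, through which microglia sense ADP and extend processes to damage, had the smallest genotype difference of the markers other than Tmem119 when App_NCD 553 was left out. It was at 375, 244, 164 and 255 CPM in WT_NCD 4, 5, 11 and 12 and at 219.9, 169, 171 and 326 CPM in WT_HFD 2, 3, 15 and 16. The App_NCD libraries 537, 538, 545 and 553 had 399.6, 392, 430.3 and 2292 CPM, and App_HFD 547, 559, 560 and 561 had 403, 461, 326 and 219.7. App_NCD 553 thus had several times the level of any other library. Its log2 fold change on the control diet was 1.76 ± 0.520 with that library (adjusted p = 0.0485) and 0.62 ± 0.279 without it (edgeR adjusted p = 0.134), so the difference rests largely on App_NCD 553. The call with 16 libraries was kept in 3 of the 16 fits that leave 1 library out, those without App_NCD 537, 538 or 545, and lost in the others (adjusted p from 0.0324 to 0.153 over the 16). On the high-fat diet it was 0.65 ± 0.261 without that library (adjusted p = 0.101) and 0.67 ± 0.507 with it (adjusted p = 0.6).

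P2ry13, a second ADP receptor, was at 33.4 to 129 CPM in WT_NCD, 50.9 to 102 in WT_HFD, 131 to 172 in App_NCD with 553 and 111 to 164 in App_HFD. The lowest WT_NCD value was that of WT_NCD 11. Its log2 fold change was 1.06 ± 0.324 on the control diet (edgeR adjusted p = 0.0367; 0.0582 with all 16 libraries) and 1.06 ± 0.305 on the high-fat diet (adjusted p = 0.0241). Med12l, the gene around both receptors on the other strand, was at 11.4 to 20.7 CPM in the 15 libraries and 19.9 CPM in App_NCD 553; whether the deposited counts used strand is not given in the sources used here. Gpr34, a receptor for lysophosphatidylserine, rose by 1.42 ± 0.303 on the log2 scale on the control diet, 2.68-fold (edgeR adjusted p = 0.00509), and by 1.61 ± 0.288 on the high-fat diet (adjusted p = 0.00123). Its WT_NCD range of 41.8 to 136 CPM had WT_NCD 11 lowest, and App_NCD ran from 194 to 269 CPM with 553 included. WT_HFD was at 55.1 to 102 and App_HFD at 163 to 254 CPM. Gpr34 lies inside Cask, on the other strand.

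Cx3cr1, the receptor for the neuronal chemokine fractalkine, had more counts than any other marker in 15 of the 16 libraries. WT_NCD 4, 5, 11 and 12 had 628, 394, 325 and 399 CPM and WT_HFD 2, 3, 15 and 16 had 356, 291, 273 and 542. App_NCD 537, 538, 545 and 553 had 1007, 926, 978 and 649.8 CPM and App_HFD 547, 559, 560 and 561 had 865, 1015, 781 and 686. On the TMM scale the App libraries were all above the wild-type libraries. The rise was 1.12 ± 0.235 on the log2 scale on the control diet without App_NCD 553, 2.18-fold (edgeR adjusted p = 0.00435), and 1.17 ± 0.222 on the high-fat diet (adjusted p = 0.00176). In GENCODE vM21 the gene's longest model runs across several neighbours, Csrnp1 on the same strand among them, so some of its counts could be divided with these.

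Fcrls, an Fc-receptor-like scavenger receptor of mouse microglia, had the largest rise on both diets when App_NCD 553 was left out. WT_NCD 4, 5, 11 and 12 had 265, 166, 198 and 173 CPM and WT_HFD 2, 3, 15 and 16 had 164, 127, 124 and 232. App_NCD 537, 538, 545 and 553 had 757, 849, 847 and 129.9 CPM, the last of which was below most wild-type libraries. App_HFD 547, 559, 560 and 561 had 785, 916, 699 and 574 CPM. The rise on the control diet was 2.00 ± 0.217 without App_NCD 553, 4.00-fold (edgeR adjusted p = 1.69e-05), and 1.69 ± 0.418 with it (adjusted p = 0.0211). On the high-fat diet it was 2.18 ± 0.209 without App_NCD 553, 4.53-fold (adjusted p = 4.45e-06).

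Siglech, a sialic-acid-binding receptor that signals through Tyrobp, was at 135, 77.1, 74.5 and 85.6 CPM in WT_NCD 4, 5, 11 and 12 and 77.5, 63.8, 57.3 and 124 in WT_HFD 2, 3, 15 and 16. In App_NCD 537, 538, 545 and 553 it was at 191, 207, 216 and 57.4 CPM, and in App_HFD 547, 559, 560 and 561 at 208, 246, 183 and 168. Here too App_NCD 553 was at the wild-type level or below and its 3 companions were all above it. The log2 fold change on the control diet was 1.11 ± 0.242 without that library (edgeR adjusted p = 0.00576) and 0.85 ± 0.349 with it (0.137), and on the high-fat diet 1.30 ± 0.229 (adjusted p = 0.00106) without it. Selplg, which encodes the selectin ligand PSGL-1, rose by 0.85 ± 0.240 on the control diet (edgeR adjusted p = 0.0249) and by 0.84 ± 0.225 on the high-fat diet (adjusted p = 0.0158). It was at 189 to 299 CPM in WT_NCD, 164 to 309 in WT_HFD, 346 to 469 in App_NCD with 553 and 253 to 515 in App_HFD, where App_HFD 561 lay within the WT_HFD range.

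Olfml3, a secreted olfactomedin-domain protein, was at 165, 104, 142 and 105 CPM in WT_NCD 4, 5, 11 and 12 and 119, 81.8, 87.4 and 153 in WT_HFD 2, 3, 15 and 16. App_NCD 537, 538, 545 and 553 had 468, 410.3, 411 and 344 CPM and App_HFD 547, 559, 560 and 561 had 383, 451, 312 and 239. On the TMM scale App and wild-type libraries did not overlap, App_NCD 553 included. The rise was 1.71 ± 0.237, 3.26-fold, on the control diet (edgeR adjusted p = 0.000174) and 1.63 ± 0.225 on the high-fat diet (adjusted p = 0.000141). Sall1, the zinc-finger factor that maintains microglial identity and is not found in other macrophages, had the smallest SE. WT_NCD 4, 5, 11 and 12 had 105, 86.5, 68.1 and 85.5 CPM and WT_HFD 2, 3, 15 and 16 had 71.4, 74.6, 67.2 and 94.0. App_NCD 537, 538, 545 and 553 had 169, 128, 136 and 185 CPM and App_HFD 547, 559, 560 and 561 had 123, 148, 133 and 116. Again no App library lay within the wild-type range on the TMM scale. The rise was 0.71 ± 0.149, 1.64-fold, on the control diet (edgeR adjusted p = 0.00435) and 0.74 ± 0.140 on the high-fat diet (adjusted p = 0.00182). Olfml3, Sall1 and Gpr34 were called on both diets with all 16 libraries and with each of the 16 libraries left out in turn.

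**Figure D2:**
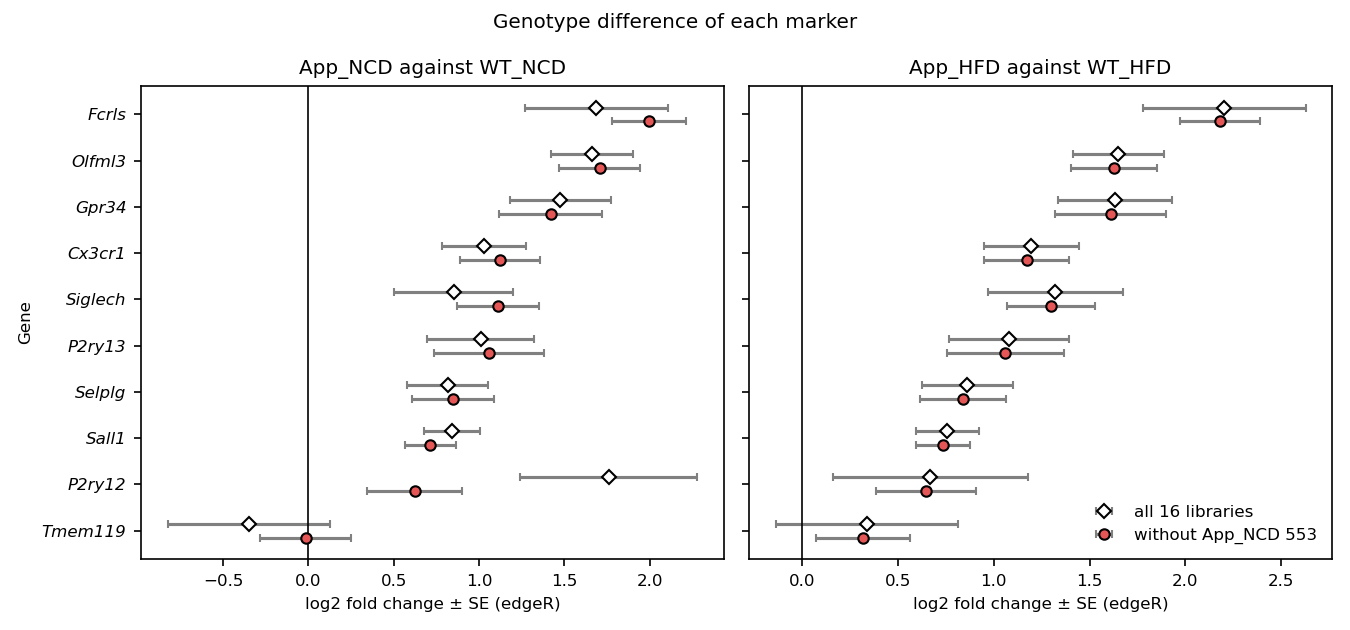
Log2 fold change of each marker, App over wild type, with its SE (edgeR), on the control diet (left) and the high-fat diet (right); open diamonds are the fit with all 16 libraries, filled circles the fit without App_NCD 553. Tmem119 lies at -0.016 and 0.31 without that library, and P2ry12 moves from 1.76 to 0.62 on the control diet.

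The markers kept no fixed proportions between genotypes. Per kilobase of exon (union of GENCODE vM21 basic exons, without App_NCD 553), the highest mean levels in WT_NCD were 121 CPM per kb for Selplg, 106 for P2ry12, 97.5 for Tmem119, 96.9 for Cx3cr1 and 88.2 for Fcrls, and the lowest was 16.4 for Sall1. In App_NCD the order of the means was Fcrls at 359.7, Selplg at 223, Cx3cr1 at 215, P2ry12 at 167, Gpr34 at 111 and Tmem119 at 98.5 CPM per kb. Selplg was above Cx3cr1 in App_NCD 537 alone (253 against 224 CPM per kb). It was just below Cx3cr1 in App_NCD 538 (203 against 206) and 545 (212 against 217). In WT_NCD the group ranges of the first 5 overlapped, but Selplg was above the other 4 in each of the 4 libraries, while the order of P2ry12, Tmem119, Cx3cr1 and Fcrls changed between libraries. On the high-fat diet the same levels were 86.8 and 109.6 for Tmem119 and 71.1 and 327 for Fcrls in WT_HFD and App_HFD.

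Set against Cx3cr1 in the same library, the ratio of Tmem119 CPM to Cx3cr1 CPM was 0.424 to 0.658 in the 8 wild-type libraries and 0.187 to 0.316 in the 7 App libraries without App_NCD 553. The means were 0.521 ± 0.0693 (SD, n = 8 libraries) and 0.263 ± 0.0500 (SD, n = 7 libraries). For P2ry12 the ratio was 0.505 to 0.638 and 0.320 to 0.465, and for Fcrls 0.421 to 0.611 and 0.752 to 0.917. The wild-type and App ranges did not overlap for any of these 3 ratios. They overlapped for the ratios of Sall1, Selplg, P2ry13, Siglech, Gpr34 and Olfml3. Cx3cr1 itself rose in App, so a gene without a change falls on this scale. The share of all genes that do not overlap on it was not computed, so the lower ratios do not set Tmem119 and P2ry12 apart. In App_NCD 553 the 3 ratios were 0.0374, 3.53 and 0.200. No test was made of these ratios, since the markers were picked with earlier results known.

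**Figure D3:**
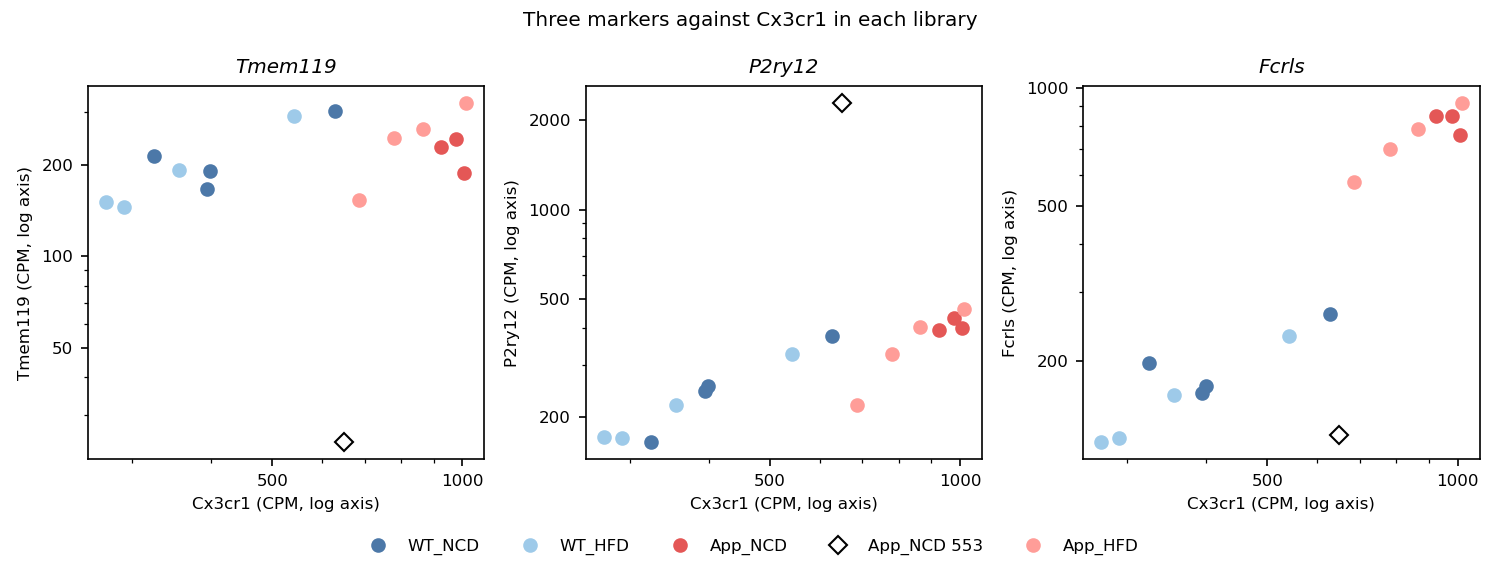
CPM of Tmem119, P2ry12 and Fcrls against CPM of Cx3cr1 (both log axes); each point is a library, coloured by group, and the open diamond is App_NCD 553. Relative to Cx3cr1, App libraries lie lower for Tmem119 (ratio 0.187 to 0.316, wild type 0.424 to 0.658) and higher for Fcrls (0.752 to 0.917, wild type 0.421 to 0.611).

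The same was seen against the 16 core genes of microglia and macrophages, whose own rise was larger than that of most markers: 14 of 16 rose on the control diet (median log2 fold change 1.62) and 15 of 16 on the high-fat diet (median 1.68) without App_NCD 553, and 11 and 14 with it. Irf8, Laptm5, Ptpn6 and C1qa, the last a complement subunit, rose by 1.92 ± 0.212, 1.98 ± 0.236, 2.08 ± 0.257 and 2.04 ± 0.277 on the control diet, and C1qc by 2.2 ± 0.259 on the high-fat diet (each without App_NCD 553). Log2 CPM of Tmem119 minus the mean log2 CPM of these 16 genes was 1.49 ± 0.0996 (SD, n = 8 libraries) in wild type and 0.069 ± 0.213 (SD, n = 7 libraries) in App, a difference of -1.42. The wild-type values were 1.34 to 1.64 and the App values -0.21 to 0.36, and -2.16 in App_NCD 553. The difference was -0.95 for P2ry12, -0.88 for Sall1 and -0.75 for Selplg, whose ranges did not overlap between genotypes either. It was -0.46 for P2ry13, -0.42 for Cx3cr1, -0.35 for Siglech, -0.024 for Gpr34 and 0.062 for Olfml3, all with overlap, and 0.51 for Fcrls, with no overlap. So 4 markers were wholly lower in App on this scale, where 67.5% of all genes were, and 1 was wholly higher, where 0.868% were.

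**Figure D4:**
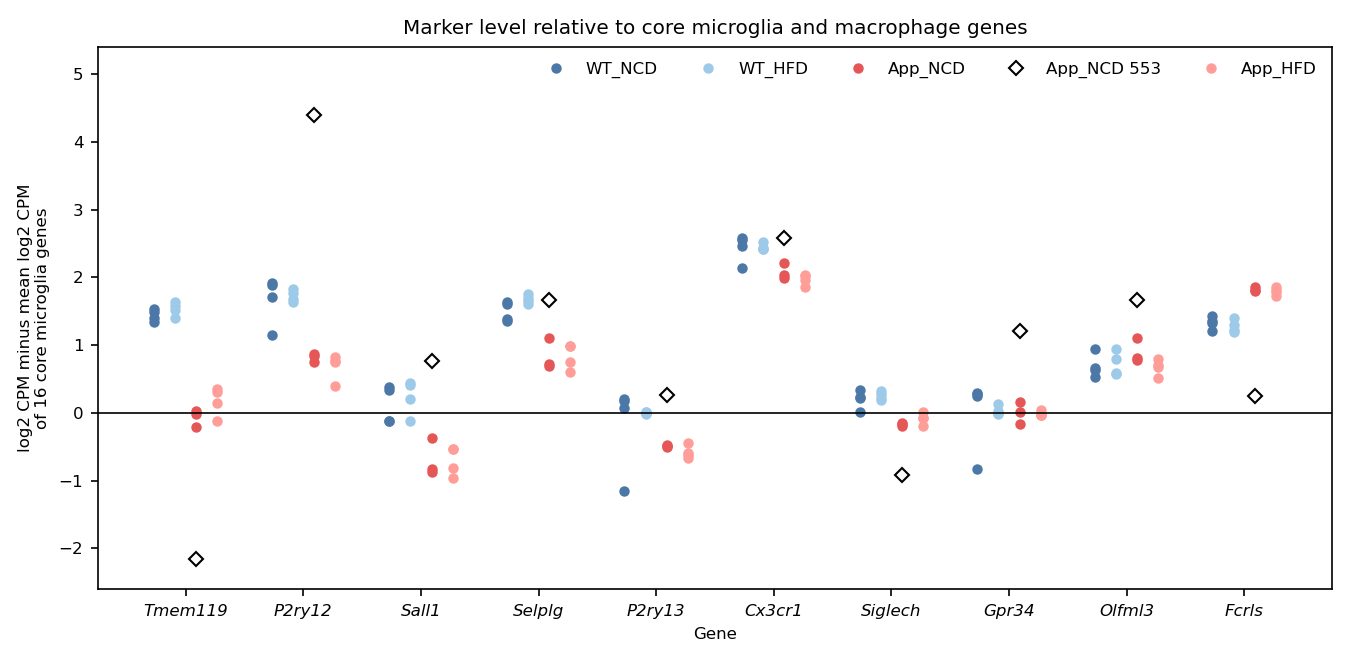
Log2 CPM of each marker minus the mean log2 CPM of 16 core microglia and macrophage genes in the same library, by group; points are libraries and the open diamond is App_NCD 553. Tmem119 lies at 1.34 to 1.64 in wild type and -0.21 to 0.36 in the other App libraries, Fcrls at 1.19 to 1.42 and 1.72 to 1.86.

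With the libraries scaled to these 16 genes in place of TMM (without App_NCD 553, chosen after seeing the data), edgeR gave Tmem119 a log2 fold change of -1.51 ± 0.279 on the control diet (adjusted p = 1.19e-05) and -1.35 ± 0.251 on the high-fat diet (adjusted p = 6.83e-06). P2ry12 had -0.87 ± 0.283 and -1.03 ± 0.259, Sall1 -0.81 ± 0.275 and -0.95 ± 0.252, and Selplg -0.65 ± 0.275 and -0.84 ± 0.253, each called lower on both diets. P2ry13 was called lower on the high-fat diet alone (-0.58 ± 0.260, adjusted p = 0.0351), and Fcrls higher there (0.52 ± 0.248, adjusted p = 0.0499). Under it all genes had a median of -1.60 and -1.72, and 80.6% and 86.8% of all genes were called lower and 1.28% and 1% higher, so calls as lower do not set these markers apart. Against 20 other homeostatic microglia genes, Tmem119 was the only marker called lower. Scaled to that list, Tmem119 had -0.57 ± 0.219 (edgeR adjusted p = 0.0343) and -0.48 ± 0.201 (adjusted p = 0.0373), while P2ry12 had 0.055 ± 0.233 and -0.15 ± 0.216, with adjusted p of 0.854 and 0.54. Of all genes 43% and 63.6% were then called lower and 4.17% and 3.12% higher (median -0.65 and -0.84). This list had itself risen in App, so by construction a gene without a rise comes out lower. The calls as lower therefore do not set Tmem119 apart from all genes. Of the markers, Tmem119 was called lower on both diets, Siglech, Gpr34, Olfml3 and Fcrls higher on both, and Cx3cr1 higher on the control diet. Per library, Tmem119 was the only marker wholly lower in App on this scale, where 17.5% of all genes were, and Cx3cr1, Siglech, Gpr34, Olfml3 and Fcrls were wholly higher, where 2.77% were.

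The high-fat diet moved no marker past the threshold in either genotype. In wild type all 10 log2 fold changes, high-fat over control diet, were between -0.32 and -0.078 without App_NCD 553 (edgeR, 0 called, 0 with an unadjusted p under 0.05). In App they were between -0.31 and 0.16 without that library (0 called, 0 with an unadjusted p under 0.05). With it P2ry12 had -1.32 ± 0.513 (adjusted p = 0.392), the 1 marker with an unadjusted p under 0.05, and Tmem119 0.52 ± 0.477 (adjusted p = 0.651). Of all genes 0% were called for diet in either genotype or for the interaction in edgeR, with or without App_NCD 553. The interaction, the genotype difference on the high-fat diet minus that on the control diet, was called for 0 of the 10. Tmem119 had the largest value without App_NCD 553, at 0.33 ± 0.362 (adjusted p = 1), and the other 9 ran from -0.079 to 0.19. DESeq2 also called 0 of the 10 in each of these 3 contrasts; over all genes it called 7 for diet in wild type, 102 for diet in App and 3 for the interaction. With edgeR 419, 2586 and 639 of the 21768 genes tested had an unadjusted p under 0.05 with all 16 libraries. For the 10 markers, diet effects and interaction were therefore not detected at this spread, which for a marker such as Cx3cr1 had an SE of 0.235 for diet in App.

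Among the 20 other homeostatic genes, 13 rose and 1 fell on the control diet and 14 rose on the high-fat diet without App_NCD 553, with medians of 0.83 and 0.83; with it 8 rose on each diet. Vsir, an immune checkpoint protein, rose by 1.40 ± 0.216 and 1.67 ± 0.206 (edgeR adjusted p = 0.000426 and 5.04e-05), Golm1 by 1.30 ± 0.209 and 1.46 ± 0.198, and Il10ra, the interleukin-10 receptor, by 0.99 ± 0.187 and 1.24 ± 0.177. Other genes of this list also had no rise. Gpr165, an orphan receptor, had -1.09 ± 0.326 on the control diet, a fall that passed (adjusted p = 0.0332) and had -0.42 ± 0.295 on the high-fat diet (adjusted p = 0.372). Ltc4s, the leukotriene C4 synthase, had 0.013 ± 0.219 and 0.11 ± 0.203, Crybb1 -0.84 ± 0.327 and -0.25 ± 0.297, and the fructose transporter Slc2a5 0.39 ± 0.240 on the control diet, none of which passed; Slc2a5 rose by 0.72 ± 0.225 on the high-fat diet (adjusted p = 0.0351).

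Most factors and signals that set microglial identity rose as well. Of 17 such genes 13 rose and 1 fell on the control diet, and 14 rose and 1 fell on the high-fat diet (medians 1.11 and 1.21, without App_NCD 553); with all 16 libraries 12 and 11 rose and 0 fell. Tgfbr2, a receptor subunit for transforming growth factor β, rose by 1.84 ± 0.163 and 1.99 ± 0.156, its ligand Tgfb1 by 1.95 ± 0.23 and 2.02 ± 0.220, and Csf1, the ligand of the receptor on which microglia depend, by 2.72 ± 0.136 and 2.38 ± 0.129 (edgeR adjusted p = 8.47e-09 and 2.25e-08). Irf8 is one of these factors, and Spi1, which encodes PU.1, rose by 1.19 ± 0.23 on the control diet. Irf8 and Spi1 are also in the core list, Csf1 in the plaque-associated list and Tgfbr1 among the other homeostatic genes, so these lists are not separate. Itgb8, the integrin subunit that frees transforming growth factor β from its latent form, fell on both diets, with -0.43 ± 0.117 on the control diet (adjusted p = 0.0212) and -0.60 ± 0.108 on the high-fat diet (adjusted p = 0.00122). Among 8 partners of the markers, Cx3cl1, the fractalkine that binds Cx3cr1, fell on both diets, with -0.64 ± 0.154 and -0.64 ± 0.141 (edgeR adjusted p = 0.0106 and 0.00489). Tyrobp, the adaptor of Siglech, rose by 3.57 ± 0.312 and 3.71 ± 0.305, and Entpd1, which breaks ATP and ADP down, by 1.01 ± 0.219 and 1.01 ± 0.206. Tyrobp is also in the plaque-associated list and Entpd1 among the other homeostatic genes. Panx1, a channel that lets ATP out of cells, also rose, and Nt5e, the next nucleotidase, fell on the high-fat diet (-0.70 ± 0.165, adjusted p = 0.0073).

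Other gene groups moved with genotype in the same libraries. Of 24 genes of the plaque-associated microglial state 23 rose on each diet without App_NCD 553, with medians of 2.76 and 2.92, beside 1.08 and 1.12 for the 10 markers. The integrin subunit Itgax rose by 6.91 ± 0.283 and 6.74 ± 0.278, Gpnmb by 6.77 ± 0.288 and 6.78 ± 0.284, and the growth factor Igf1 by 4.15 ± 0.243 and 4.22 ± 0.239 (edgeR). Border macrophage genes, 8 in all, summed to 755 to 1225 CPM in WT_NCD, 513 to 944 in WT_HFD, 843 to 1278 in App_NCD and 849 to 1021 in App_HFD, with 0 and 1 of them higher in App on the control and high-fat diets (edgeR; 1 with an unadjusted p under 0.05 on the control diet). The 1 that passed was Lyve1, at 0.81 ± 0.246. The 10 blood monocyte and neutrophil genes summed to 19.2 to 381, 20.6 to 298, 21.7 to 51.0 and 10.8 to 28.0 CPM in the same order. The tops of both wild-type ranges were WT_NCD 4 and WT_HFD 16, and the other libraries there reached 46.8 and 26.3 CPM. Of these 10 genes 0 rose on the control diet, and Plac8 fell on the high-fat diet (-1.81 ± 0.521). Of the 15 myelin genes only Opalin passed, on the high-fat diet (-0.62 ± 0.172), and of 8 endothelial genes 5 and 4 fell, Slco1a4 among them (-1.08 ± 0.198 and -0.93 ± 0.180). The 8 astrocyte genes summed to 2803 to 4323 CPM in WT_NCD, 3303 to 4763 in WT_HFD, 1842 to 3931 in App_NCD without 553 (5905 in App_NCD 553) and 2341 to 3390.2 in App_HFD. Of these, 2 fell on the control diet, Aldh1l1 (-0.89 ± 0.186) and Slc1a3 (-0.70 ± 0.214), and on the high-fat diet Aldh1l1 fell (-0.52 ± 0.169) and Gfap rose (0.57 ± 0.173). The 8 neuronal genes summed to 56.3 to 67.2, 80.8 to 96.6, 51.0 to 58.6 and 70.7 to 105 CPM in the same order, and Slc17a7 fell on the control diet (-1.84 ± 0.591) and Syt1 on the high-fat diet (-1.35 ± 0.336). Slc17a7 was near the floor, with 2 to 6 counts in App_NCD 537, 538 and 545 and 16 to 38 in WT_NCD. Most of the neuronal sum was Tubb3, with 50.7 of 56.3 CPM in WT_NCD 4 and 98.6 of 105 CPM in App_HFD 547. Early-response genes that tissue dissociation is known to induce were higher in App as well: 10 of 15 rose on the control diet and 13 on the high-fat diet, such as Nfkbiz (2.04 ± 0.240 and 2.2 ± 0.231), Zfp36, Atf3 and Ier2. Their sum was 3725 to 6131 CPM in WT_NCD, 3804 to 5107 in WT_HFD, 8061 to 8663 in App_NCD and 6722 to 9692 in App_HFD, without App_NCD 553. The part of these groups in the levels of the markers was not tested.

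By likeness of pattern, measured as Pearson's r of log2 CPM over the 15 libraries other than App_NCD 553 among the 14815 other genes whose mean level reached 1 CPM, the genes most like Tmem119 included Sox4 (r = 0.861), Pnp (0.855), Slc2a5 (0.850) and Chst7 (0.850). The nearest other marker, P2ry12, came at place 57 (r = 0.756), and Selplg at 141. The mean of the other 9 markers was most like Cx3cr1 (r = 0.997), itself one of the 9, then Mlxipl (0.994), Tifab (0.994), Gpr183 (0.991) and Irf5 (0.991); Tmem119 came at place 3291 (r = 0.597). Over the 8 wild-type libraries the r of Tmem119 with the other 9 ran from 0.621 (P2ry13) to 0.968 (Fcrls), and over the 7 App libraries from 0.196 (Sall1) to 0.863 (Siglech). It was lower in App for Cx3cr1, Sall1, Siglech, Olfml3, Fcrls, Selplg and P2ry12 (0.799 and 0.786 for the last) and higher for Gpr34 (0.669 and 0.824) and P2ry13 (0.621 and 0.714). The libraries share a spread in the level of all microglial genes, and these values are descriptions without a test.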

How the data were processed

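The authors deposited 1 table of estimated counts, with a row for each gene and a column for each library. Per the submitters' processing notes, fastp 0.23.2, HISAT2 2.2.1, StringTie 2.2.1 and bedtools 2.25.0 were used with the build mm10. The annotation and any use of strand in counting are not given in the sources used here. StringTie estimates counts from coverage and can divide reads between overlapping genes; all values were whole numbers, so rounding changed none. The markers and lists were chosen with earlier results of these data known. Genes were filtered with filterByExpr, libraries scaled by TMM, and the 4 groups fitted together (12 residual degrees of freedom) with the quasi-likelihood test of edgeR 4.0.16 (limma 3.58.1, R 4.3.3), robust, with Benjamini-Hochberg adjustment over all tested genes and a threshold of 0.05; standard errors come from the log2 fold change and its F value. Log2 CPM used a prior count of 0.5. DESeq2 1.42.0, other scalings and filters and left-out libraries were alternatives. The procedure was tested on simulated counts. All 10 markers are named; from each other list, up to 4 called genes with the smallest adjusted p for each genotype contrast. Spi1, Nt5e, Itgb8, Ltc4s, Crybb1, Gpr165 and Slc2a5 were added after their values were seen, and some genes the rule names are not reported here. Positions are from GENCODE vM21 and RefSeq on GRCm38. Of the symbols used, Itgam had 2 IDs, and the one GENCODE vM21 names so was taken.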

Additional observations from a re-analysis of the deposited data

Results flagged for a closer look

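Of 40 marker and group pairs, 5 held a library whose gap to its nearest neighbour was a large part of the range of the group by Dixon's criterion, which chance meets in about 1 in 20 groups. P2ry12 was at 2292 CPM in App_NCD 553, against 392 to 430.3 CPM in the other 3 App_NCD libraries. Siglech was at 57.4 CPM there, against 191 to 216. Fcrls was at 129.9 CPM there, against 757 to 849. Gpr34 was at 102 CPM in WT_HFD 16, against 55.1 to 60.7 in the other WT_HFD libraries. Selplg was at 299 CPM in WT_NCD 4, against 189 to 206 in the other WT_NCD libraries. Tmem119 was at 24.3 CPM in App_NCD 553, against 188 to 243 in its 3 companions, short of the criterion. In the same library Sall1, Gpr34, Cx3cr1, Olfml3, Selplg and P2ry13 stayed above the WT_NCD range on the TMM scale. Relative to plain library totals none of them was above that range. That library also had 39.4% mitochondrial counts and the fewest genes with a count; their part in these values was not tested.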

How the results depend on the processing

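Of the 10 markers, 7 were called for genotype on the control diet and 8 on the high-fat diet. The counts were 1 and 3 with library totals, 5 on the high-fat diet with oligodendrocyte list scaling, and 1 on the control diet with only the 8 libraries of the pair. Leaving out 1 library at a time gave 3 to 8 and 5 to 8, and over all genes 939 to 3900 and 869 to 4307. Core microglia list scaling gave 1 and 3, all lower, and without App_NCD 553 4 and 6, of which 1 on the high-fat diet was higher. Other homeostatic list scaling without that library gave 5 on the high-fat diet. With RLE scaling, DESeq2, no filter or the stricter filter both counts stayed within 1.5 times. The diet contrasts and the interaction had 0 called in every alternative run. With core microglia list scaling, log2 fold changes between genotypes were, on the control diet, -0.18 for P2ry13, -0.22 for Cx3cr1, -0.30 for Sall1, -0.53 for Siglech and -0.40 for Selplg, and on the high-fat diet -1.03 for P2ry12, -0.58 for P2ry13, -1.35 for Tmem119, -0.47 for Cx3cr1, -0.95 for Sall1, -0.34 for Siglech, -0.049 for Gpr34, -0.058 for Olfml3 and -0.84 for Selplg. For diet in wild type it gave 0.035 for P2ry12 and 0.093 for Tmem119. Without App_NCD 553 as well, they were -0.87 for P2ry12, -0.41 for P2ry13, -0.37 for Cx3cr1, -0.81 for Sall1, -0.38 for Siglech, -0.059 for Gpr34 and -0.65 for Selplg on the control diet, -1.03 for P2ry12, -0.58 for P2ry13, -1.35 for Tmem119, -0.47 for Cx3cr1, -0.95 for Sall1, -0.34 for Siglech, -0.049 for Gpr34, -0.058 for Olfml3 and -0.84 for Selplg on the high-fat diet and 0.035 for P2ry12 and 0.093 for Tmem119 for diet in wild type. Other homeostatic list scaling without App_NCD 553 gave -0.15 for P2ry12, -0.48 for Tmem119 and -0.075 for Sall1 on the high-fat diet and 0.015 for P2ry12 and 0.079 for Tmem119 for diet in wild type. The fits that join a left-out App_NCD 553 with another change were chosen after seeing the data. By construction these scalings hold the named list level. Tmem119 on the control diet was 0.012 with DESeq2 without App_NCD 553, 0.20 without App_NCD 553, WT_NCD 4 and WT_HFD 16, and 0.016 without App_NCD 553 and WT_NCD 11. With 1 library left out in turn, Tmem119 ran from -0.43 to 0.020 for diet in wild type and P2ry12 from -1.32 to 0.023 for the interaction; the latter was 0.037 without App_NCD 553, WT_NCD 4 and WT_HFD 16 and 0.18 without App_NCD 553 and WT_NCD 11. Beyond the scalings and the left-out libraries, the cause was not tested. For all genes the main counts of 1826 and 1554 became 505 and 4816 with the 8 libraries of the pair, 841 and 1176 with library totals, 3398 and 2508 with DESeq2, 13469 and 18164 with core scaling, and 3900 and 4307 without App_NCD 553. Oligodendrocyte list scaling gave 2998 on the control diet and 1066 on the high-fat diet. Single markers in the diet contrasts and the interaction were followed through the alternatives for Tmem119 and P2ry12 only. No paired analysis was possible because the labels give each group replicate numbers of its own. The number of libraries limits the precision.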

Other observations

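WT_NCD 4 and WT_HFD 16 had the highest level of their group for all 10 markers. These libraries also had the highest sums of blood monocyte and neutrophil genes. The sum was 381 CPM in WT_NCD 4, against 19.2 to 46.8 in the rest of its group. In WT_HFD 16 it was 298 CPM, against 20.6 to 26.3. The part of blood cells in the marker levels of these libraries, Selplg among them, was not tested. WT_NCD 11 had the lowest P2ry12 (164 CPM), P2ry13 (33.4 CPM) and Gpr34 (41.8 CPM) of all 16 libraries, while its Tmem119 (214 CPM) and Olfml3 (142 CPM) were the second highest of the WT_NCD group. It also had the smallest mitochondrial share (1.22%).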
